A study of Mus musculus with 2 samples.

Results

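The C/EBP family (CCAAT/enhancer-binding proteins) was represented by the 6 genes Cebpa, Cebpb, Cebpd, Cebpe, Cebpg and Cebpz among the 32286 features of the data set. They were chosen by gene symbol, and each symbol belonged to 1 feature. The family was picked because Cebpb was lower in the LOY library, so the Cebpb difference between the libraries is given as a description, and so are the values of its relatives in the same contrast. The LOY group was mice with transplanted bone marrow that had lost the Y chromosome (genotype LOY), and the Control group was mice with transplanted control marrow. Both groups underwent transverse aortic constriction (TAC), surgery that raises the pressure the left ventricle pumps against. Viable CD45+ RFP+ cells, which the labels describe as immune cells derived from the transplanted marrow, were sorted from collagenase-digested left ventricles. Each group was 1 droplet 3' RNA library from 3 mice pooled after the sort. The sources used here do not state the age of the mice or how the Y chromosome was removed. With 1 library per group no test was made, and marrow genotype cannot be told apart from any other difference between the 2 libraries. All intervals are at the 95% level and cover counting error only.

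C/EBP proteins bind DNA as dimers through a basic region and a leucine zipper. C/EBPα and C/EBPε guide granulocyte development, C/EBPβ and C/EBPδ are induced by cytokines and microbial products in monocytes and macrophages, and C/EBPγ lacks a strong activation domain and works mainly as a dimer partner. Cebpz shares the name but encodes a protein without the leucine zipper, whose yeast counterpart works in ribosome assembly, so it serves here as a relative by name only.

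The genes lie apart in the mouse genome (mm10, GENCODE M21). Cebpa is on chromosome 7 at 35119293 to 35121928 on the plus strand, and Cebpg is its neighbour at 35046422 to 35056573 on the minus strand. Cebpb is on chromosome 2 at 167688915 to 167690418 on the plus strand, with 1 transcript of 1 exon. Cebpd is on chromosome 16 at 15887286 to 15891031 (plus), Cebpe on chromosome 14 at 54710360 to 54712174 (minus) and Cebpz on chromosome 17 at 78919006 to 78937066 (minus). Tmem189 runs antisense over part of Cebpb, Spidr over part of Cebpd and Cebpzos over part of Cebpz. The sources used here do not state whether counting used the strand, and reads of these pairs may not be separable. Tmem189 had 910 UMIs in the LOY library and 1789 UMIs in the Control library, beside 2031 LOY and 28004 Control UMIs of Cebpb (UMI, unique molecular identifier, 1 per counted transcript). These counts are not scaled to library size, and the kept cells held 17465875 LOY and 37995967 Control UMIs in all.

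The promoters of the members whose RefSeq promoter was at hand (3 of 6, GRCm38.p6, 250 bases before the start site) are shown because the 3 genes differed in how far the libraries stood apart. Capitals mark matches on either strand to TGACG (the core of a cAMP response element) in Cebpb, TATAAA (a core promoter element) in Cebpa and CCAAT in Cebpg. The windows are chr2:167688665-167688914 (plus strand) for Cebpb, chr7:35119043-35119292 (plus) for Cebpa and chr7:35056567-35056816 (minus) for Cebpg.
Cebpb: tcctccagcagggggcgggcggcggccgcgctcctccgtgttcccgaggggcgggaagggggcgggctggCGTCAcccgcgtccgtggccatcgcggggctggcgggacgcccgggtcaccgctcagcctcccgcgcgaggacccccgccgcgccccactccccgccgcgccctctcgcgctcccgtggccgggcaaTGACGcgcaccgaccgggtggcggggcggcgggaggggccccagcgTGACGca
Cebpa: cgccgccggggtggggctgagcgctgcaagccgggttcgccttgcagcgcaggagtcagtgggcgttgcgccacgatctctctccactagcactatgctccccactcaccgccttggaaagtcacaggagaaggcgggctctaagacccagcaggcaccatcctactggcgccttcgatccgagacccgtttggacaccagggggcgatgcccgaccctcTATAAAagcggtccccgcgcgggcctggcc
Cebpg: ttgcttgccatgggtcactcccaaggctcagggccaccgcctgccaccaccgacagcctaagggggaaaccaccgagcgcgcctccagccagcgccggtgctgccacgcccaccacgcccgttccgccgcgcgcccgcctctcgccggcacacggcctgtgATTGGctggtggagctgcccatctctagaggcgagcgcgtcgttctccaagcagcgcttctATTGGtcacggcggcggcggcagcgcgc
The Cebpb window held TGACG 3 times, at 180, 53 and 7 bases before the start. TGACG was in 17.8% of 32851 promoters of the same length, and 3.9% held it more than once. The Cebpa window held TATAAA at 30 bases, as 12.4% of promoters did, and the Cebpg window held CCAAT at 89 and 28 bases, as 33.8% did at least once. No window held TTNNGNAA, the C/EBP-type site searched, which 36.8% of promoters hold. The GC content was 81.6% for Cebpb, 66.4% for Cebpa and 70.8% for Cebpg, against a median of 52.4% over all promoters. A match to these letters is a description and not a binding site.

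The LOY library held 5475 barcodes with 18710715 UMIs and a median of 3026 UMIs per barcode, and the Control library held 7276 barcodes with 42640861 UMIs and a median of 5109.5. After filters 5178 LOY and 6585 Control cells were kept, and 17 barcodes were shared between the kept cells of the libraries. The Y-linked genes Ddx3y, Eif2s3y, Kdm5d and Uty together stood at 14.0 CPM (UMIs of a gene per 1000000 UMIs of its group) in the LOY library and 124 CPM in the Control library. This is 11.3% of Control (9.93% to 12.9%). Clustering without the 6 members gave 20 clusters, named from marker genes. Of these, 7 were macrophage-like, and their cells made up 54.4% of LOY cells (2819) and 60.9% of Control cells (4012). Different clusters filled this class in each library. In the LOY library it was mostly the cluster led by Tmem119, Spp1 and Olfml3 (982 LOY, 29 Control cells), that led by Spp1, Syngr1 and Fabp5 (939 LOY, 24 Control) and the cycling cluster led by Hist1h1b, Top2a and Birc5 (341 LOY, 158 Control). In the Control library it was mostly the clusters led by Pla2g2d, Ccl8 and Clec10a (145 LOY, 1358 Control), by Egr1, Cxcl2 and Rgs1 (54 LOY, 1150 Control) and by H2-Eb1, H2-Ab1 and H2-Aa (212 LOY, 925 Control). Clusters whose leading genes held markers of another type stay numbered.

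In macrophage-like cells the members differed in how far the libraries stood apart. Cebpb was the lowest relative to Control, Cebpd next and Cebpa after it, Cebpg did not reach the 1.5-fold used as a call, and the Cebpz interval held equality. A difference is called here when log2((LOY CPM + 10)/(Control CPM + 10)) passes 1.5-fold, among genes with at least 10 CPM in either library. By this rule 8.73% of 7868 genes were lower and 7.31% were higher in LOY macrophage-like cells, and 3 of the 5 family members measured were lower and 0 higher. The median log2 ratio was -0.67 over those 5 members and -0.02 over all genes. Since the family was chosen on this contrast, nothing is read from that count.

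Cebpb, the inflammation-induced member, had 1023 UMIs in LOY macrophage-like cells, 100.3 CPM (94.2 to 107). In Control macrophage-like cells it had 16095 UMIs, 637 CPM (627 to 646). Cebpb in LOY cells therefore stood at 15.8% of Control (14.8% to 16.8%), and 7 of the 7868 genes had a lower log2 ratio than its -2.55. Within the 5 macrophage-like clusters with at least 50 cells of each library, Cebpb ran from 18.8% to 25.1% of Control, above the pooled value. The pooled class holds different clusters in each library. Cebpd, the relative induced by many of the same signals, had 52.4 CPM in LOY cells (535 UMIs) and 127 CPM in Control cells (3201 UMIs). Its LOY level was 41.4% of Control (37.7% to 45.4%). Cebpa, the factor of granulocyte and monocyte commitment, had 85.4 CPM in LOY cells (871 UMIs) and 141 CPM in Control cells (3574 UMIs), 60.4% of Control (56.0% to 65.1%). Thus each of these 3 was lower in the LOY cells, and their percentages had intervals that do not overlap.

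Cebpg, the dimer partner, had 84.4 CPM in LOY macrophage-like cells and 115 CPM in Control cells. Its LOY level was 73.6% of Control (68.1% to 79.5%), short of 1.5-fold. Cebpz, the relative by name, had 51.3 CPM in LOY cells and 49.1 CPM in Control cells, 104% of Control (94.1% to 116%), an interval that holds 100%. Cebpe, the late granulocyte factor, had 5 UMIs in LOY cells and 55 UMIs in Control cells. Of those 55, 46 were in 1 Control cell of the cycling cluster, which held 27799 UMIs in all, 1842 of them from the granule gene Camp and 388 from Ngp. Without that cell Cebpe had 5 LOY and 9 Control UMIs, 138% of Control (36.2% to 457%), so no difference in Cebpe was detectable at this depth in macrophage-like cells.

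**Figure D1:**
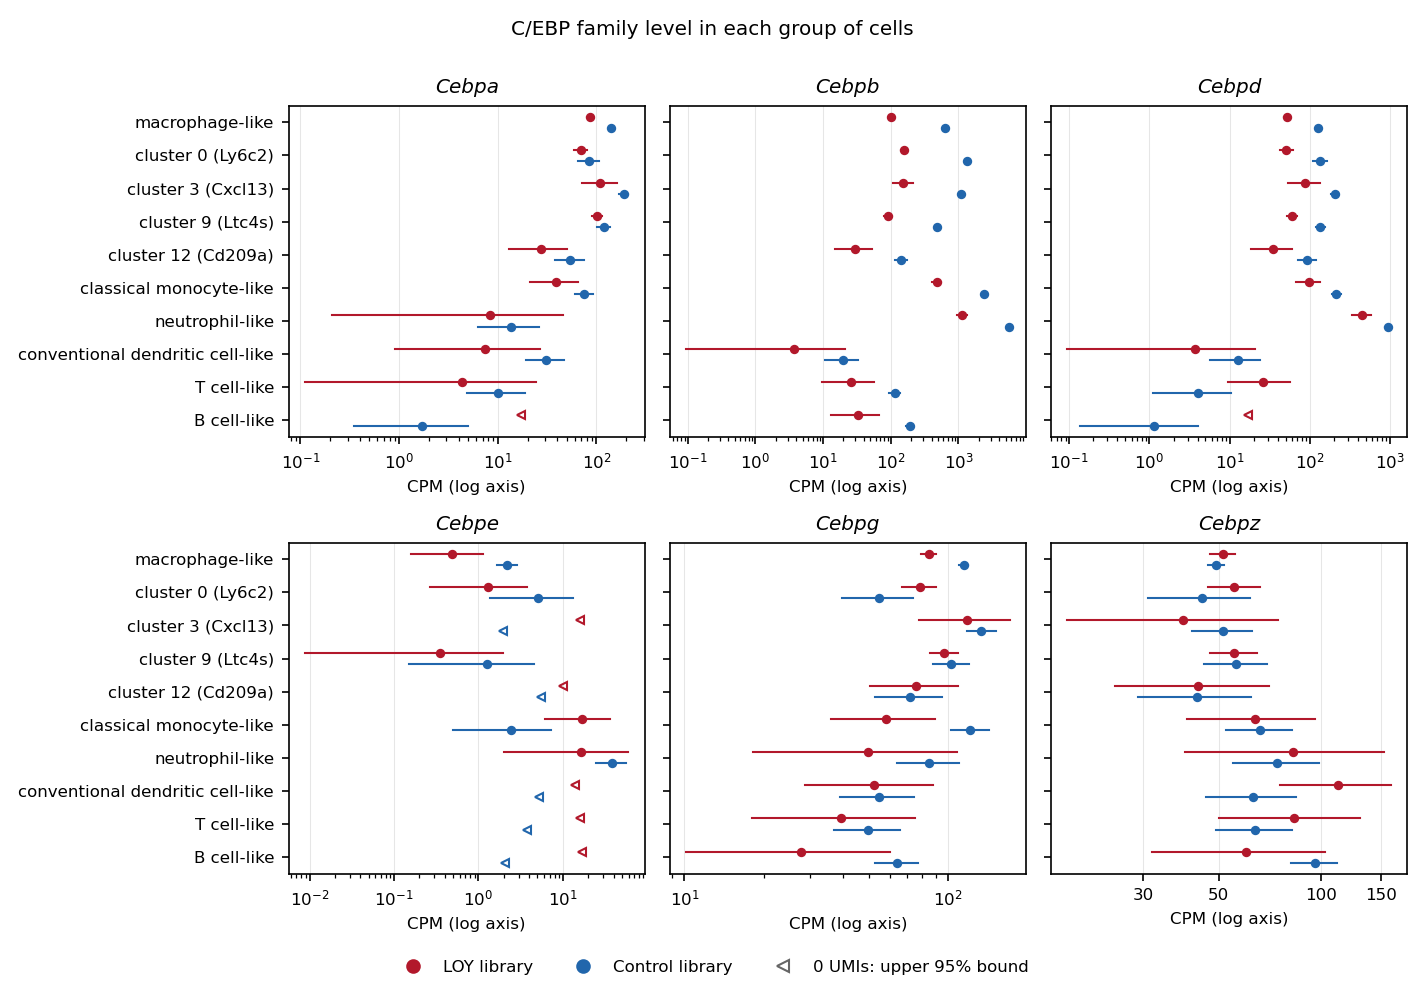
Level of each C/EBP member in CPM (log axes) in the 10 groups of cells compared, with LOY (red) drawn above Control (blue) in each row; bars are exact Poisson intervals at 95%, and open triangles mark the upper bound where no UMI was counted. On all counted UMIs Cebpb lies lower in the LOY library in each row, from 1117 against 5516 CPM in neutrophil-like cells to 3.73 against 19.6 CPM in conventional dendritic cell-like cells, whereas the Cebpz points lie close together in most rows.

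Across cell types Cebpb followed the same descending order in both libraries for the groups where it was highest. Neutrophil-like cells had 1117 CPM in the LOY library (936.5 to 1322) and 5516 CPM in the Control library (5339 to 5699). Classical monocyte-like cells, whose leading genes also include the nonclassical gene Ace, had 474 CPM in the LOY library and 2417 CPM in the Control library. Cluster 0, led by Ly6c2, Plac8 and Chil3 and closest to macrophages, had 157 CPM in LOY cells (804) and 1355 CPM in Control cells (117). Cluster 3 (Cxcl13, Vsig4, Id3) followed with 153 LOY and 1096 Control CPM, and its cells also held the cardiomyocyte transcript Tnnt2. In the LOY library clusters 0 and 3 had overlapping intervals (141 to 174 and 106 to 212), whereas in the Control library they were apart (1275 to 1439 and 1050 to 1145). The macrophage-like class and cluster 9 (Ltc4s, Lyve1, Fcna; 90.9 LOY and 485 Control CPM) came next.

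Cebpb was low but counted in lymphoid cells. B cell-like cells had 7 LOY UMIs, 32.3 CPM, and 336 Control UMIs, 190 CPM. Their Control counts of Cebpa (3 UMIs) and Cebpd (2 UMIs) were near 0, in a library with 28004 Cebpb, 4550 Cebpa and 5127 Cebpd UMIs in all. The part of free RNA in these counts was not tested. T cell-like cells had 26.3 CPM in the LOY library (6 UMIs) and 115 CPM in the Control library (113 UMIs). NK cell-like cells had 4 UMIs in 49 LOY cells and 165 UMIs in 190 Control cells, 39.2 LOY and 202 Control CPM. Neighbours in this low part of the order had overlapping intervals in the LOY library. Conventional dendritic cell-like cells, led by Xcr1 and Itgae, were lowest, with 1 LOY UMI and 14 Control UMIs, 10 of these in 1 cell.

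On all counted UMIs Cebpb was lower in the LOY library in each of the 10 groups with at least 50 cells per library, but in dendritic cell-like cells the direction depended on depth. There, with cells thinned to 1000 UMIs, 1 UMI was left in each library and the LOY level was 18.2 CPM, against 16.4 CPM in Control cells. The LOY level ran from 11.6% of Control in cluster 0 (10.3% to 13.1%) to 22.9% in T cell-like cells (8.23% to 51.4%). Neutrophil-like cells stood at 20.3% (16.9% to 24.1%) and classical monocyte-like cells at 19.6% (16.7% to 22.9%). B cell-like cells stood at 17.0% of Control (6.78% to 35.4%). The interval lay below 100% in 9 groups and held 100% in the dendritic cell-like cells (0.451% to 125%). The same rule called many genes in the smaller groups, so those shares are given beside the member counts. In neutrophil-like cells 25.1% of measured genes were lower and 18.5% higher, and in classical monocyte-like cells 16.6% were lower and 9.4% higher. B cell-like cells had 22.3% lower and 9.48% higher, T cell-like cells 18.1% and 19.1%, and dendritic cell-like cells 21.7% and 14.9%. The lower and higher shares were 14.9% and 7.65% in cluster 0, 21.1% and 14.5% in cluster 3, 10.8% and 4.52% in cluster 9, and 19.5% and 14.3% in cluster 12. Of the members measured, 4 of 6 were lower in neutrophil-like cells, 4 of 6 in classical monocyte-like cells, 3 of 3 in B cell-like cells and 1 of 5 in T cell-like cells. In dendritic cell-like cells and clusters 3 and 12 the count was 3 of 5 each, and in clusters 0 and 9 it was 2 of 5 each. Each count includes Cebpb, on which the family was chosen, so nothing is read from these counts. Some calls rest on few UMIs, such as Cebpe in neutrophil-like cells (2 LOY UMIs, 5.02% to 175% of Control). A member was higher by the rule in 3 groups, Cebpd in T cell-like, Cebpe in classical monocyte-like and Cebpz in dendritic cell-like cells.

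Few genes were lower in every group. Of 4483 genes measured in all 10 groups, 50 (1.12%) were at least 1.5-fold lower in the LOY library in each, and 17 (0.379%) were higher in each. Cebpb had the lowest median log2 ratio of the 50, -2.29, with a range from -3.03 to -1.11. Since the family was chosen because Cebpb was lower in this contrast, nothing is read from that rank. In dendritic cell-like cells Cebpb passed the rule on 1 LOY and 14 Control UMIs, 10 of these in 1 cell. After thinning to 1000 UMIs its log2 ratio there was 0.095, so its place among the 50 depends on depth. The other genes of the 50, named after their values were seen, were of several kinds. They included the Y-linked Eif2s3y (median -2.12) and Ddx3y (-1.90), and 4 genes of the immediate early list described below, Btg2 (-2.21), Nr4a1 (-1.91), Klf2 (-1.62) and Zfp36 (-1.45). They also included genes that all cells use, such as Pfn1, which encodes the actin-binding protein profilin (-1.91), and the ribosomal-protein genes Rpl10 (-1.86) and Rpl35 (-1.80). Among the 17 higher genes were Actb, which encodes β-actin (0.99), and the ribosomal-protein gene Rps15 (1.22). With mitochondrial and ribosomal-protein genes left out of the totals, all 50 and all 17 genes kept their sign in each group, and 44 and 17 of them stayed past 1.5-fold. The part of the library in the Cebpb difference was not tested.

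**Figure D2:**
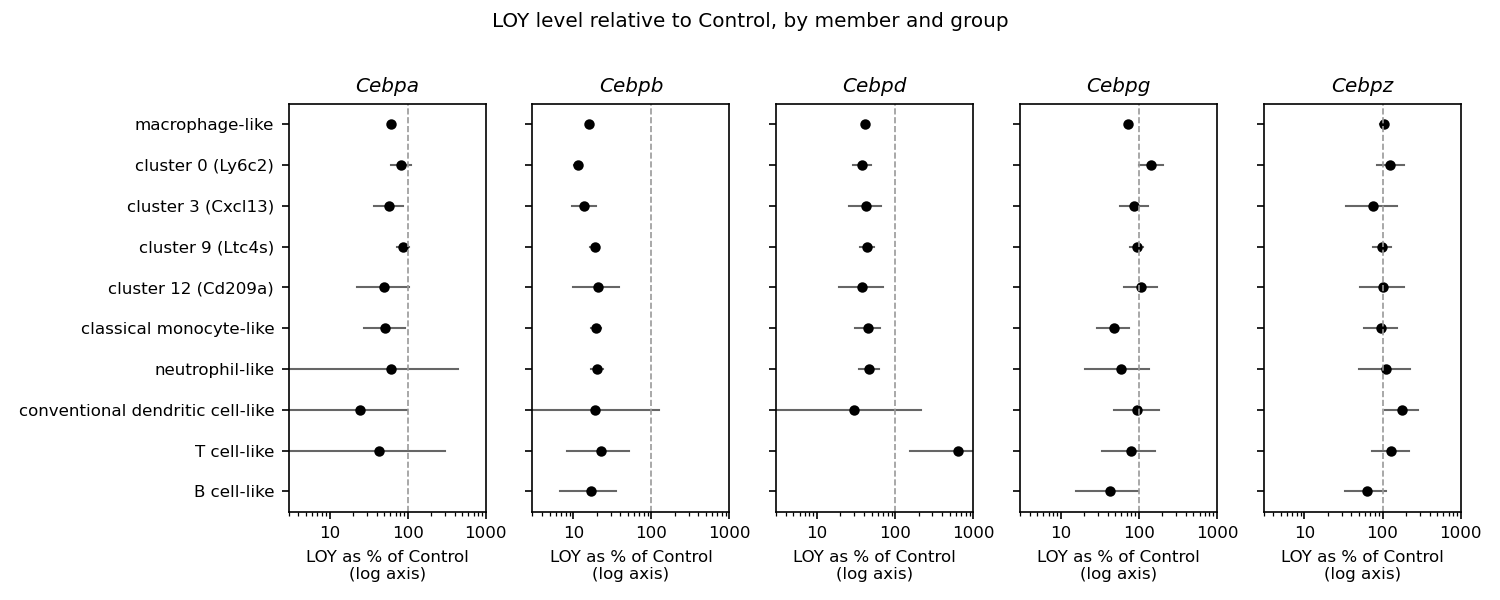
LOY level as a percent of the Control level (log axis from 3 to 1000, intervals beyond it cut off) for 5 members in 10 groups of cells, with exact conditional intervals at 95% and a dashed line at 100%; a missing point means that a library had no UMI. Cebpb sits between 11.6% and 22.9% in every row, while the Cebpz points lie on both sides of 100%.

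Cebpd was highest in neutrophil-like cells, with 447 CPM in the LOY library (54 UMIs) and 953 CPM in the Control library (629 UMIs), 46.9% of Control (34.8% to 62.0%). In classical monocyte-like cells it had 97.1 LOY and 216 Control CPM. Fibroblast-like cells, a contaminant of 10 LOY and 13 Control cells, also held much Cebpd (307 LOY and 817 Control CPM). Cebpd was lower by the 1.5-fold rule in 8 of the 10 groups, with intervals below 100% in 7. In those 7 the LOY level lay between 37.7% (cluster 0) and 46.9% of Control (neutrophil-like cells). T cell-like cells went the other way on few counts, with 6 LOY and 4 Control UMIs, 26.3 and 4.06 CPM, and after thinning to 1000 UMIs with 0 LOY and 4.24 Control CPM. B cell-like cells had 0 LOY and 2 Control UMIs. The upper bound of the LOY level there is 17.0 CPM, above the Control level of 1.13 CPM, so no difference was detectable at this depth.

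Cebpa was counted mainly in the clusters closest to macrophages and in classical monocyte-like cells (38.8 LOY and 75.0 Control CPM). It stood at 109 CPM in LOY and 190 CPM in Control cells of cluster 3, and at 102 LOY and 118 Control CPM in cluster 9. In cluster 0 it had 69.0 LOY and 83.9 Control CPM. Neutrophil-like cells had few Cebpa counts, 1 LOY and 9 Control UMIs, and B cell-like cells 0 LOY and 3 Control UMIs. The LOY level was 57.4% of Control in cluster 3 (36.6% to 86.1%) and 51.8% in classical monocyte-like cells (27.2% to 91.3%), both below 100%. In clusters 0 and 9 it was 82.3% (61.4% to 111%) and 86.8% (72.0% to 105%), and both intervals hold 100%. Cebpa was therefore lower in some groups and without a detectable difference in others.

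Cebpg was counted in each of the 10 groups. It ran from 27.7 to 118 CPM in the LOY library and from 49.7 to 134 CPM in the Control library. Its interval lay below 100% in B cell-like cells (43.3% of Control, 15.6% to 97.2%), classical monocyte-like cells (47.9%, 28.8% to 76.0%) and macrophage-like cells, and held 100% in 6 groups. In cluster 0 it had 78.1 LOY and 54.7 Control CPM, 143% of Control (102% to 204%), short of 1.5-fold. Cebpz ran from 39.3 to 112 CPM in the LOY library and from 43.2 to 95.5 CPM in the Control library. Its interval held 100% in 9 groups and lay above it in dendritic cell-like cells (178%, 108% to 289%, 30 LOY and 45 Control UMIs). That direction turned when cells were thinned to 1000 UMIs, to 36.4 LOY and 82.0 Control CPM. Cebpe was sparse in all groups. Neutrophil-like cells had 2 UMIs in 123 LOY cells and 25 UMIs in 285 Control cells, 43.7% of Control (5.02% to 175%). Classical monocyte-like cells had 6 UMIs in 142 LOY cells and 3 UMIs in 205 Control cells, 680% of Control (145% to 4204%), but 9.33 LOY and 38.0 Control CPM with doublets kept.

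Among the clusters closest to macrophages, of which 0, 3, 9 and 12 stay numbered because their top genes hold more markers of other types, Cebpb again differed in level and was lower in LOY in each compared. The Egr1, Cxcl2 and Rgs1 cluster was highest in the LOY library, with 201 CPM (31 UMIs), and had 802 CPM in the Control library, where clusters 0 and 3 were above it. The Pla2g2d, Ccl8 and Clec10a cluster had 124 LOY and 661 Control CPM, and the interferon cluster led by Cxcl10, Ifit2 and Rsad2 had 119 LOY and 612 Control CPM. The H2-Eb1 cluster of antigen-presenting genes had 106 LOY and 437 Control CPM, and the cycling cluster 84.8 LOY and 395 Control CPM. Cluster 12 (Cd209a, Ifitm1, Traf1) was lowest, with 29.8 LOY and 143 Control CPM. It held 4 of 9 macrophage markers, and its top genes hold more markers of conventional dendritic cells than of macrophages. Over the 9 clusters with at least 50 cells in each library the LOY level lay between 11.6% and 25.1% of Control, with each interval below 100%. The shares of genes lower and higher by the 1.5-fold rule were 14.3% and 8.98% in the interferon cluster, 20.1% and 15.8% in the Egr1 cluster, and 12.3% and 5.91% in the Pla2g2d cluster. They were 11.0% and 9.09% in the H2-Eb1 cluster and 11.7% and 6.94% in the cycling cluster. Of 6134 genes measured in all 9 clusters, 77 (1.26%) were at least 1.5-fold lower in each and 33 (0.538%) were higher in each.

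The remaining 3 clusters closest to macrophages had under 50 cells of 1 library, so their values are given without a ratio. The Tmem119 cluster had 90.5 CPM of Cebpb in 982 LOY cells and 388 CPM in 29 Control cells. The Spp1, Syngr1 and Fabp5 cluster had 108 CPM in 939 LOY cells and 464 CPM in 24 Control cells. In cluster 7 (Retnla, Mmp12, Ear2) the 26 LOY cells had 93.3 CPM and the 131 Control cells 425 CPM. These few cells had Cebpb nearer to the macrophage-like level of their own library (100.3 LOY and 637 Control CPM). Both Control values lay below 637 CPM, with intervals of 310 to 480 in the Tmem119 cluster and 352 to 602 in the Spp1 cluster. The part of free RNA in these values was not tested.

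**Figure D3:**
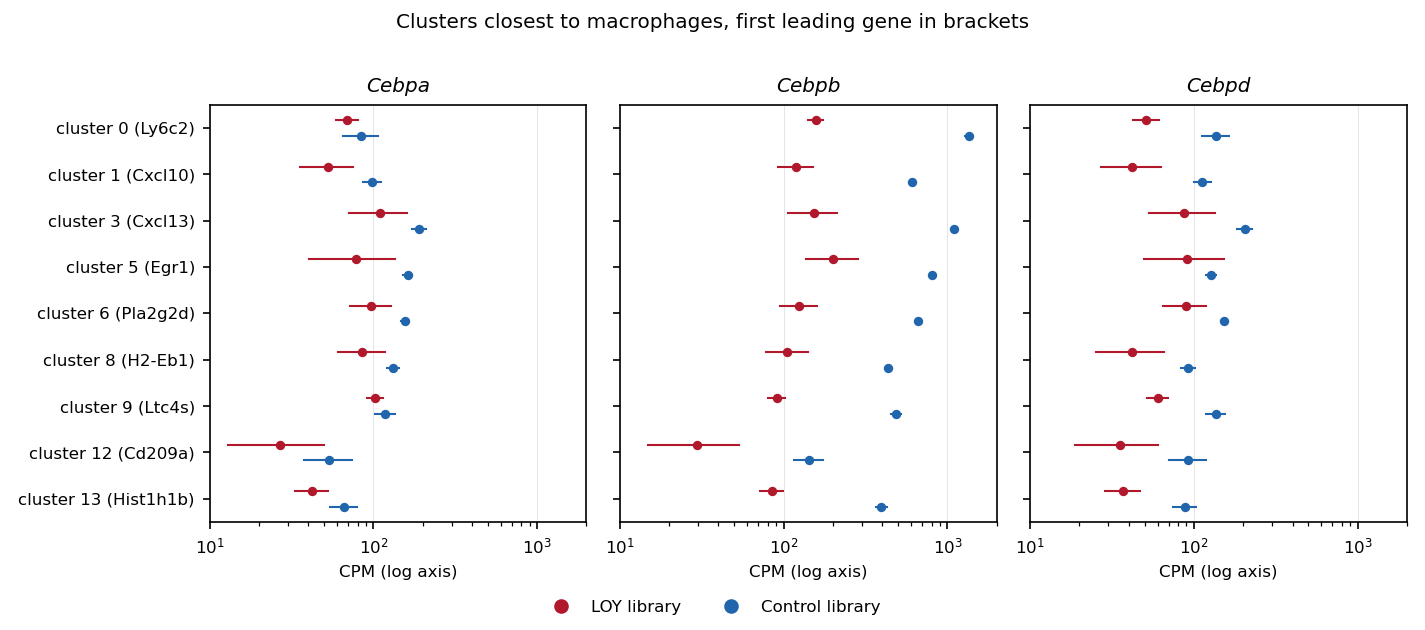
Cebpa, Cebpb and Cebpd in CPM (log axes) in the 9 clusters closest to macrophages with at least 50 cells in each library, LOY (red) above Control (blue), with exact Poisson intervals at 95%. For Cebpb the intervals of the libraries are apart in each row, and for Cebpa they overlap in clusters 0, 9 and 12.

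Cebpd was lower by the 1.5-fold rule in 8 of these 9 clusters, from 37.4% of Control in the interferon cluster (23.6% to 56.7%) to 57.8% in the Pla2g2d cluster (42.0% to 77.8%). In the Egr1 cluster it was 71.6% (39.0% to 121%). Cebpa was lower by the rule in 5 of 9.

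The share of cells with a Cebpb UMI differed too. With each cell thinned to 1000 UMIs, 271 of 2758 LOY macrophage-like cells (9.83%, exact Clopper-Pearson interval 8.74% to 11.0%) and 1744 of 3985 Control cells (43.8%, 42.2% to 45.3%) held one. Thinning left out 61 LOY and 27 Control cells, and the unthinned shares were 27.5% and 87.0%. At least 3 UMIs were seen in 0.0725% of LOY and 4.89% of Control cells. Cells with any Cebpb UMI held a mean of 1.06 UMIs in the LOY library and 1.51 in the Control library. B cell-like cells at the same depth gave 3.23% (2 of 62) in the LOY library and 14.2% in the Control library, from unthinned medians of 854 and 2044 UMIs. For Cebpd the thinned shares of macrophage-like cells were 5.08% in LOY and 11.3% in Control, and for Cebpa 8.05% and 13.4%.

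Cebpb was as low in LOY-library cells that held a Y-linked UMI as in those that held none. In macrophage-like cells of the LOY library, the 113 cells with a Y-linked UMI had 56 Cebpb UMIs, 101 CPM (76.1 to 131), and the 2706 cells without had 100.2 CPM (94.0 to 107). The 26 LOY cells with more than 1 Y-linked UMI had 93.4 CPM (49.7 to 160). In the Control library the 1819 cells with a Y-linked UMI had 627 CPM and the 2193 without had 647 CPM. Cebpd and Cebpa likewise differed little between cells with and without a Y-linked UMI of the LOY library (45.0 and 52.9 CPM, 82.7 and 85.5 CPM). Whether the Y-linked UMIs of the LOY library came from cells that kept the chromosome or from free RNA was not tested.

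**Figure D4:**
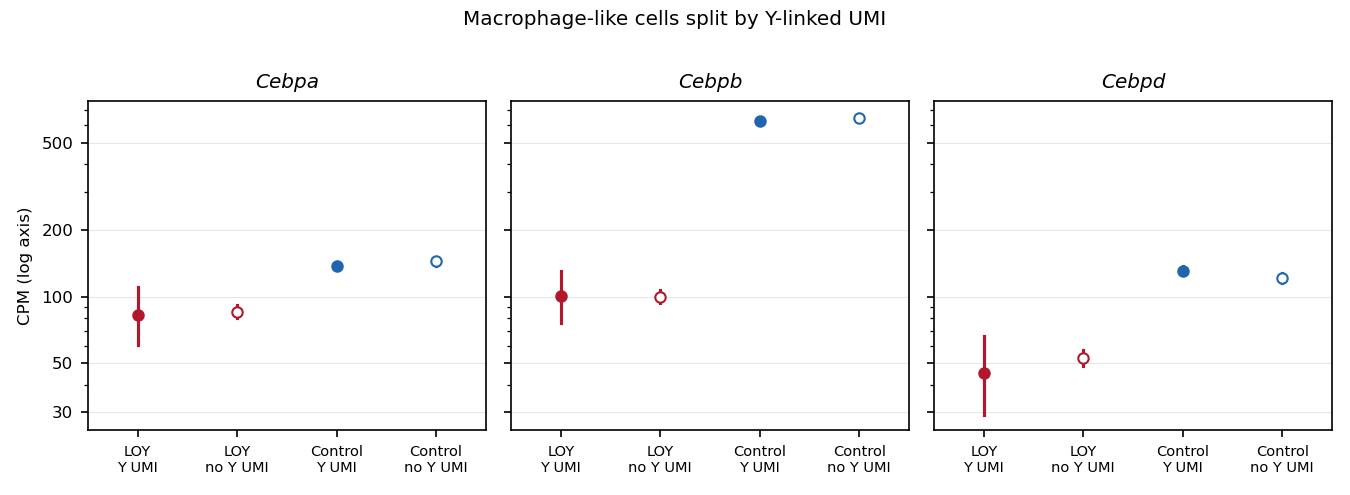
Cebpa, Cebpb and Cebpd in CPM (log axis) in macrophage-like cells of the LOY (red) and Control (blue) libraries, split into cells with a Y-linked UMI (filled) and without (open), with exact Poisson intervals at 95%. Within each library both points for Cebpb lie close together, at 101 and 100.2 CPM in LOY and 627 and 647 CPM in Control.

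Immediate early genes, which rise within minutes of a stimulus and also on tissue digestion, were lower in the same LOY cells. In macrophage-like cells 20 of the 21 genes of this list were at least 1.5-fold lower in the LOY library and 0 were higher, with a median log2 ratio of -1.31. Over all genes measured there 8.73% were lower and 7.31% higher, with a median of -0.02. The summed level of the list was 6005 CPM in LOY and 15720 CPM in Control cells. Btg2 (14.1% of Control) and Klf2 (14.2%), which encode an antiproliferative protein and a quiescence factor, were lowest. Ier3 (91.0%) and Jun (64.5%) were highest, and Jun was still past 1.5-fold. The macrophage-like class holds different clusters in each library. The Egr1, Cxcl2 and Rgs1 cluster gave 1150 of its Control but 54 of its LOY cells. In single numbered clusters closest to macrophages, 14 of 21 genes were lower in cluster 0, 21 in cluster 3, 11 in cluster 9 and 17 in cluster 12. In each of these 0 were higher. Over all genes there 14.9%, 21.1%, 10.8% and 19.5% were lower. The part of the cluster mix was not tested. The summed level was lower in other cells too, with 7661 LOY and 13850 Control CPM in B cell-like cells and 34770 LOY and 47270 Control CPM in neutrophil-like cells. By gene, 14 of 20 were lower and 1 higher in B cell-like cells, beside 22.3% of all genes lower. In T cell-like cells 13 of 21 were lower and 3 higher, beside 18.1% lower. In neutrophil-like cells 8 of 21 were lower, 2 higher and 11 within 1.5-fold, beside 25.1% lower. The median share of mitochondrial UMIs was 1.96% in LOY and 3.06% in Control macrophage-like cells. The part of these differences in the Cebpb result was not tested. Cebpb within bins of immediate early UMIs is given next.

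When macrophage-like cells were sorted by how many immediate early UMIs they held per 1000, Cebpb was lower in LOY in each bin. Cells with 0 to 2 such UMIs had 80.4 CPM in the LOY library (796 cells) and 386 CPM in the Control library (324 cells), 20.8% of Control (15.2% to 28.4%). The percentage was 19.3% for 3 to 5 UMIs, 23.2% for 6 to 11 and 16.8% for 12 to 23. With 24 or more it was 33.0% (18.0% to 55.7%), from 14 Cebpb UMIs in 42 LOY cells, against 905 UMIs in 897 Control cells. Cells of that bin held a mean of 28.1 immediate early UMIs in LOY and 35.5 in Control, so the bin does not match their levels. Within the Control library Cebpb was higher in each bin of more immediate early UMIs, up to 1009 CPM in the last. Cebpd lay between 44.2% and 48.8% of Control in the first 4 bins, and 17.1% on 1 LOY UMI in the last (0.429% to 97.0%).

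**Figure D5:**
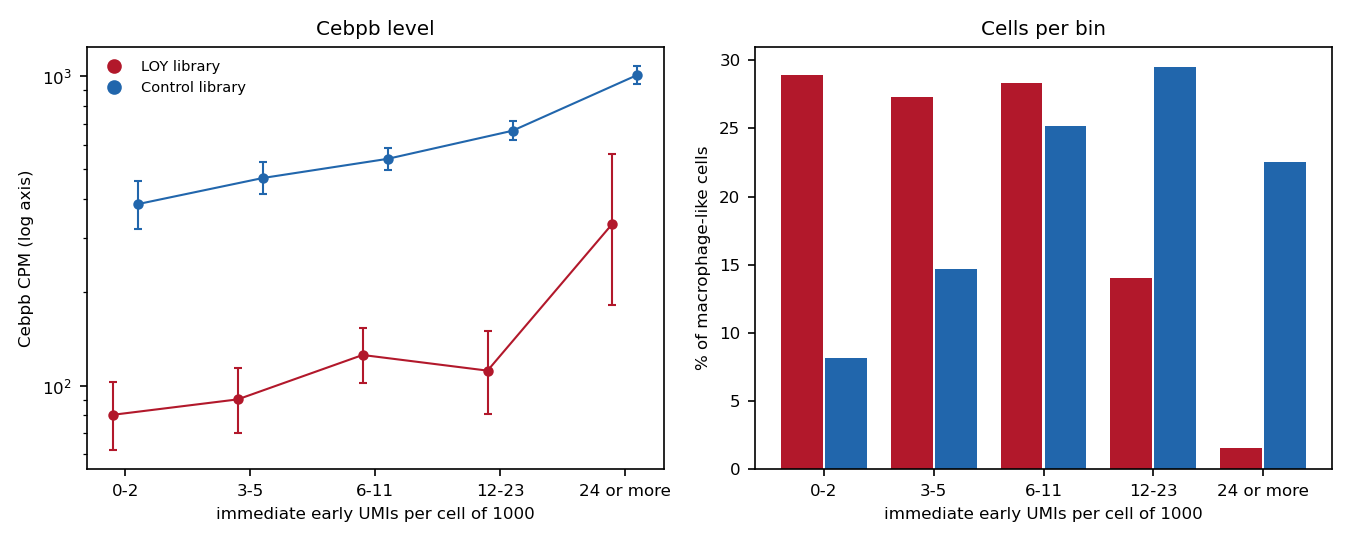
Left, Cebpb in CPM (log axis) in macrophage-like cells thinned to 1000 UMIs and grouped by their number of immediate early UMIs, LOY (red) and Control (blue), with exact Poisson intervals at 95%; right, the percent of macrophage-like cells of each library per bin. Cebpb is lower in LOY in each bin, and the bin of 24 or more holds 1.52% of LOY and 22.5% of Control cells.

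Of all genes measured in macrophage-like cells, 8.73% were lower and 7.31% higher by 1.5-fold, with a median of -0.02. Genes upstream of the family stood near those shares. Of 12 receptors and signal transducers that induce C/EBP genes, all measured, 1 was lower and 1 higher, with a median of -0.23. Il6ra, the interleukin-6 receptor chain, was lowest (65.6 LOY and 116 Control CPM) and Crem, a cAMP-responsive factor, next (18.5 and 31.9 CPM, short of 1.5-fold on the scale with 10 added). Csf1r, the macrophage growth factor receptor, was highest (983 LOY and 651 Control CPM, just past 1.5-fold), followed by Csf2rb (75.2 and 52.4 CPM, 143% of Control). Of 14 partners and regulators of C/EBP proteins 10 were counted as measured, and 3 were lower, 0 higher, with a median of -0.42. Ddit3, also in this list, was left out of these counts because its symbol was not unique among the features. Its first feature had 1130 LOY and 2097 Control UMIs in macrophage-like cells. Batf3 (40.0 LOY and 95.5 Control CPM, 41.9%) and Atf3 (307 and 502 CPM, 61.0%), leucine zipper proteins, were lowest. Atf3 is also in the immediate early list. Trib1, which directs C/EBPα to degradation, was highest of the 10 counted (83.2 and 62.8 CPM, 132% of Control), then Spi1, the PU.1 factor of myeloid cells (493 and 456 CPM, 108%). Neither passed 1.5-fold.

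Genes known downstream of C/EBPβ in macrophages differed in both directions. Of 16 listed 11 were measured, 4 were lower and 3 higher, with a median of -0.43. Over all genes of these cells 8.73% were lower and 7.31% higher. Csf1r, among the higher genes here, is also the higher gene of the receptor list, so it is counted in both. Il1b, which encodes interleukin-1β, was lowest (142 LOY and 538 Control CPM, 26.3% of Control), followed by the nuclear receptor Nr4a1 (18.8 and 83.6 CPM), which is also in the immediate early list. Arg1, the arginase of alternatively activated macrophages, was highest, with 269 LOY and 10 Control UMIs (26.4 and 0.396 CPM), 4 of these Control UMIs in 1 cell. Saa3, an acute phase gene, was higher too (15.9 LOY and 1.82 Control CPM, 873% of Control, 626% to 1240%). Of 16 granulocyte genes downstream of C/EBP factors 8 were measured in macrophage-like cells and 5 were lower, 0 higher, with a median of -1.11. That count rested largely on the 1 Control cell described with Cebpe. Without it 5 genes were measured and 2 were lower, with a median of -0.41. S100a9, a neutrophil calcium-binding protein, was lowest on the full data (1.47 LOY and 118 Control CPM, or 11.6 Control CPM without that cell), then Camp, a granule antimicrobial (0 LOY and 1846 Control UMIs, 4 without that cell). Cybb, the oxidase subunit gp91phox, was highest (699 LOY and 706 Control CPM), then Csf3r (26.2 and 27.4 CPM), which is also in the receptor list.

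Markers of other cell types were counted in macrophage-like cells as well. The 8 neutrophil markers summed to 32.6 CPM in LOY and 234 CPM in Control cells with Ly6g at 0 in both, a sum that includes S100a8 and S100a9 of the cell named above. The 7 classical monocyte markers summed to 754 LOY and 1051 Control CPM, and the 9 macrophage markers to 30640 LOY and 25180 Control CPM. The 7 B cell markers summed to 33.2 LOY and 37.9 Control CPM, and the 8 cardiomyocyte markers to 108 CPM in both. Their part in the results was not tested.

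The genes whose level followed a member most closely over groups and libraries were found among 5305 genes, over 22 points, each a group of cells in 1 library, by Pearson's r as a description. For Cebpa these were Cd302, a lectin-like receptor (r = 0.96), Pid1 (0.95), Stard9 (0.94), the cathepsin gene Ctsc (0.94) and the Fc receptor gene Fcgr2b (0.93). For Cebpb they were the leukocyte tetraspanin Cd53 (0.92), Dazap2 (0.91), Rbms1 (0.90), the TNF receptor Tnfrsf1b (0.89) and the calcium pump Atp2b1 (0.88). For Cebpd they were Zfand5 (0.94), the TNF receptor Tnfrsf1a (0.94), Picalm (0.93), Vmp1 (0.93) and the platelet-activating factor receptor Ptafr (0.93). The points of 1 library share its preparation and depth.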

How the data were processed

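Cardiac CD45+ RFP+ cells of 2 libraries (LOY and Control, 1 each, 3 mice pooled per library) were profiled with a 3' droplet kit. The deposited UMI counts per gene and barcode were made with Cell Ranger 5.0.0 on mm10, per the submitters' processing notes. Cells needed 500 UMIs, 200 genes and no more than 10% of UMIs from mitochondrial genes. The automatic scrublet threshold marked 0% of LOY and 1.26% of Control barcodes, so the highest scores, 0.8% of barcodes per 1000, were removed as doublets (237 LOY, 407 Control).

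Counts were scaled to 10000 per cell, and 2000 variable genes, leaving out the C/EBP members, Y-linked genes, Xist, immunoglobulins, T cell receptors, haemoglobins and the mitochondrial and ribosomal-protein genes, gave 30 principal components, 15 neighbours and Leiden clusters at resolution 1 (scanpy 1.11.5, Python 3.11.15). A cluster was named from at least 3 detected markers (in 25% of its cells) of 18 cell types, unless its top 10 genes held more markers of another type. A group needed 50 cells of each library to be compared.

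UMIs were summed per library and group and given as CPM with exact Poisson intervals; ratios have exact conditional intervals (scipy 1.17.1). Measured genes had at least 10 CPM in either library. With 1 library per group there is no replicate check and no p-value. In each list the 2 highest and 2 lowest genes by log2 ratio are named, among measured genes with a unique symbol. For a member, the 5 genes most like it among named genes reaching 50 CPM are given. The members and lists were chosen with earlier results of these data known. The summing and intervals were tested on simulated data. Alternatives were the pseudocount, doublets, cell filters, clustering resolution, thinning and weighting. Protein sequences and the promoters of Cebpd, Cebpe and Cebpz are not used here.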

Additional observations from a re-analysis of the deposited data

Results flagged for a closer look

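Members whose interval lay above 100% of Control in 1 group and below it in others were looked at again; these differences between groups were not tested. Cebpd was 647% of Control in T cell-like cells (153% to 3116%, 6 LOY and 4 Control UMIs), while its interval lay below 100% in 7 other groups. Cebpe was 680% of Control in classical monocyte-like cells (145% to 4204%, 6 LOY and 3 Control UMIs), while it lay below 100% in macrophage-like cells, where 1 Control cell held 46 of 55 Control UMIs. Cebpg was 143% of Control in cluster 0 (102% to 204%, 180 LOY and 43 Control UMIs), while it lay below 100% in 3 other groups.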

How the results depend on the processing

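In macrophage-like cells the log2 ratios of Cebpb, Cebpd and Cebpa stayed below 0 under the alternatives run, and those of Cebpb and Cebpd stayed past 1.5-fold. The log2 ratio of Cebpb was -2.65 with 1 CPM added, -2.19 with 50 CPM added, -2.42 without the Egr1 cluster and -2.11 with clusters of at least 50 cells in each library weighted equally. That of Cebpd was -1.26 with 1 CPM added, -0.79 with 50 CPM, -0.99 with doublets kept, -1.26 with a minimum of 1000 UMIs and -0.83 with equal weights. Cebpa was -0.50 with 50 CPM added, short of 1.5-fold, Cebpg -0.29 with 50 CPM and -0.10 after thinning, and Cebpz -0.20 with equal weights. A Cebpb UMI was in 27.5% of LOY and 87.0% of Control macrophage-like cells unthinned, and in 5.60% of LOY and 26.3% of Control cells thinned to 500 UMIs. Of the inducing receptors 3 were lower with 1 CPM added, and 0 were lower and 0 higher with 50 CPM. Granulocyte genes had 3 lower with 50 CPM and 2 lower without the Control cell rich in Cebpe, and macrophage genes downstream of C/EBPβ had 1 higher with 50 CPM. With cells thinned to 500 UMIs and other cuts, Cebpb was 13.9% of Control at 2 immediate early UMIs and 27.0% at 6 to 11. Signs reversed for Cebpd in T cell-like cells after thinning (-0.51, 0 LOY and 4.24 Control CPM), Cebpe in classical monocyte-like cells with doublets kept (-1.31) and Cebpz (-0.99) and Cebpb (0.095, from 1 UMI in each library) in dendritic cell-like cells after thinning. Members not past 1.5-fold could change sign too, such as Cebpa in neutrophil-like cells (1.19) and Cebpg in dendritic cell-like cells (0.59) after thinning. The causes of these changes were not tested. At resolution 0.5 dendritic cell-like cells gave no value. Equal weights, adding the numbered clusters, the split by Y-linked UMI, leaving out the Egr1 cluster or the Control cell, totals without mitochondrial and ribosomal-protein genes, and the cuts of the immediate early bins were chosen after seeing the data. Without replicate libraries the spread between mice is unknown, and groups with few LOY UMIs (B, T and dendritic cell-like) limit what could be detected there.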
